A study of Mus musculus with 9 samples.

Results

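The zinc-handling genes of the mouse heart described here were 5 genes, Mt1, Mt2, Mtf1, Slc39a14 and Slc30a1, out of 13890 genes listed with counts, and all 5 were among the 13364 genes tested. They were chosen by name after the metallothioneins had been seen to differ between these hearts, so their values in the comparisons are given as a description and no test supports them. The libraries were made from RNA of whole hearts of male NSG mice, 8 weeks old at surgery, a strain that lacks mature T, B and NK cells. S were 3 sham-operated mice, T were 3 mice whose label says that HCT116 cells, a human colorectal cancer line, were placed in the spleen, and A + T were 3 mice labelled with the same tumour and ACVR2B/Fc, a soluble receptor that binds activins and myostatin. By the methods of the study, mice without ACVR2B/Fc received saline. The design notes place collection about 3 weeks after the intervention, and the methods of the study give a day somewhat later. Each library was 1 animal.

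The label T was checked against the gene list supplied with the study. Over 378 of its genes, the log2 fold changes in T vs. S had a Pearson r of 0.9998 with its column for ACVR2B/Fc without tumour. Against its column for the tumour the r was 0.2965. The list has no column for A + T vs. S, which had an r of 0.9999 with a sum of columns, tumour vs. sham plus treated vs. untreated tumour. Exchanged library labels and exchanged column headings cannot be told apart here. T is therefore used below as the name of a label, whatever treatment those animals had received. The ACVR2B/Fc protein came, according to the methods of the study, from hamster cells induced with cadmium, a metal that is known to induce metallothioneins. By the same methods, the protein was then purified from the medium of those cells on a protein A resin. Whether the preparation carried metal is not given in the sources used here, and its part in any value below was not tested.

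Metallothioneins are small, cysteine-rich proteins that bind zinc and copper in the cell and also take up cadmium. Their genes are switched on by the zinc-sensing transcription factor Mtf1, which binds short DNA words called metal response elements, and they are also known to respond to glucocorticoids and to interleukin-6 acting through Stat3. Zinc enters the cytosol through importers of the Slc39a (ZIP) family and leaves it through exporters of the Slc30a (ZnT) family. Slc39a14 (ZIP14) is an importer of zinc, manganese and iron that is known as an acute-phase gene of the liver, and Slc30a1 (ZnT1) is the exporter of the cell surface and a known target of Mtf1.

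The libraries held 12392222 to 19732471 counts, so that 3 counts corresponded to 0.152 to 0.281 CPM, the usual scaling of counts to the library total, made here with TMM factors. The ribosomal RNA gene Rn45s took 4.57 to 19.6% of the counts. The summed CPM of 5 cardiomyocyte markers was 49080 to 55096 in S, 37065 to 44830 in T and 32594 to 48474 in A + T. That of 4 atrial markers was 2908 to 2970 in S, 859 to 4552.6 in T and 793 to 2003.5 in A + T. That of 4 hepatocyte markers was 1.43 to 15.7. The summed CPM of 4 fibroblast markers was 1053 to 1250 in S against 717 to 845 in T, with 849 to 1192 in A + T, that of 4 endothelial markers 658 to 771, 388 to 488 and 507 to 595, and that of 5 macrophage markers 156 to 169, 158 to 173 and 195 to 271. The heart of animal 22 of A + T stood apart with a summed CPM of 1278 for the 2 lung and airway markers listed, which reached 80.5 in 1 library of T and 0.557 or less in the other hearts of A + T. The summed CPM of 3 neutrophil markers was 170.1 there against 11.4 and 11.99 in the other A + T hearts, 13.8 to 17.8 in T, 14.8 in animal 5 of S and 1.66 and 2.89 in the other S hearts.

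The genes lie on 4 chromosomes of GRCm38. Mt2 (ENSMUSG00000031762.7, chr8:94172664-94173568, plus strand) and Mt1 (ENSMUSG00000031765.8, chr8:94179082-94180327, plus strand) are neighbours with 5513 bases between them. Mt3 and Mt4 of the same cluster were not among the genes analysed here. Mtf1 (ENSMUSG00000028890.13, chr4:124802104-124849800, plus strand), Slc30a1 (ENSMUSG00000037434.7, chr1:191906767-191913247, plus strand) and Slc39a14 (ENSMUSG00000022094.15, chr14:70303469-70351425, minus strand) lie apart. The annotated transcripts of Mt1 and Mt2 were 549 and 511 bases long and 72.05% identical over 483 aligned bases. Their longest shared run was 20 bases and they shared 0 stretches of the read length of 75 bases, so reads of one gene could be told from reads of the other. Slc30a1, Mtf1 and Mt2 each overlap a gene on the opposite strand (1700034H15Rik, 1110065P20Rik and Gm45774), and the counting used strand. Mtf1 also holds the annotated ribosomal RNA gene n-R5s192 on its own strand, and neither it nor Gm45774 was among the genes analysed here.

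Promoter windows of 250 bases ending just before the annotated start are shown because the metallothionein genes moved together in these hearts. The windows were taken from RefSeq (GRCm38.p6) for 4 of the 5 genes, and that of Slc39a14 was not analysed here. Capitals mark the core of the metal response element, searched on both strands as TGCACNC or TGCGCNC. The windows are those of Mt2 at chr8:94172368-94172617, Mt1 at chr8:94178839-94179088 and Slc30a1 at chr1:191906531-191906780, all on the plus strand.
Mt2: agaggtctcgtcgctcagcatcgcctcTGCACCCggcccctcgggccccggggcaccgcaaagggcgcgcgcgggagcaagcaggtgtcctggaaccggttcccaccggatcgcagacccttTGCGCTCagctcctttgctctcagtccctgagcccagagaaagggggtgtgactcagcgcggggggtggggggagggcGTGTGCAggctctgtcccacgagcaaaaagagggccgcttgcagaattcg
Mt1: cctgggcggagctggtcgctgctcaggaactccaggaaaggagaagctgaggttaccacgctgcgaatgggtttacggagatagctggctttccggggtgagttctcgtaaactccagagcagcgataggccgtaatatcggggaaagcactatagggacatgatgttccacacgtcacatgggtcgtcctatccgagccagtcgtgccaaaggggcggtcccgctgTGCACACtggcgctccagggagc
Slc30a1: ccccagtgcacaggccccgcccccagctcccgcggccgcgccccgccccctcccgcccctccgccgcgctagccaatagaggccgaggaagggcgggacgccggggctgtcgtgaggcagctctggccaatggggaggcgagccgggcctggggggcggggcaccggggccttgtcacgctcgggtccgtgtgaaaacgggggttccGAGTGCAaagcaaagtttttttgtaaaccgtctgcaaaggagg

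The Mt2 window held 3 matches, beginning 223, 128 and 50 bases before the start. Mt1 held 1 match, 23 bases before its start, Slc30a1 held 1, 43 bases before its start, and the Mtf1 window held none. Of 32536 distinct promoter windows of this length, 21.55% held at least 1 match and 1.276% held at least 3, so 1 match is common. In both metallothionein genes the first TATAAA of the annotated transcript began inside the first exon, 121 (Mt1) and 135 (Mt2) bases after the RefSeq start. In a window of 250 bases ending just before that word, chosen after the annotated windows had been seen, Mt1 held 5 matches (144, 119, 101, 37 and 23 bases before it) and Mt2 held 5 (185, 131, 77, 58 and 24 bases before it). At least 5 matches were found in 0.083% of the windows that end at annotated starts, which were not placed by a TATAAA. A Stat-type word (TTCNNNGAA), held by 7.041% of all windows, was absent from the 4 windows that end at annotated starts. In these windows the antioxidant response core (TGACNNNGC), held by 10.21%, occurred once each in Mt2 and Slc30a1. The glucocorticoid half-site (TGTTCT), held by 16.03%, occurred once, in Mtf1. The windows that end before the TATAAA were searched for the metal response element only, so the other words may occur there. A match of letters is a description of the window and not a bound site.

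Mt1 and Mt2 were the members with the largest differences. Mt1 stood at 44.6, 44.1 and 64.1 CPM in the S hearts of animals 2, 3 and 5, at 300.0, 269.8 and 253.9 CPM in the T hearts of animals 11, 12 and 15, and at 95.7, 110.5 and 155.1 CPM in the A + T hearts of animals 20, 21 and 22. The 3 groups did not overlap, S being lowest and T highest. The mean was 50.9 ± 11.4 CPM in S against 275 ± 23.4 CPM in T, with 120 ± 30.9 CPM in A + T (SD, n = 3 each).

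Mt2 stood at 10.6, 10.3 and 25.8 CPM in S, at 186.6, 195.0 and 141.5 CPM in T, and at 42.7, 46.1 and 76.8 CPM in A + T. Its groups did not overlap either, and the order of the groups was that of Mt1. The mean was 15.5 ± 8.86 CPM in S against 174 ± 28.8 CPM in T, with 55.2 ± 18.8 CPM in A + T (SD, n = 3 each). In each gene animal 5 was the highest of S and animal 22 the highest of A + T. Across the 9 libraries, the deviations of Mt1 and Mt2 from their group means had a Pearson r of 0.93, a description over libraries that share their depth and scaling.

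**Figure D1:**
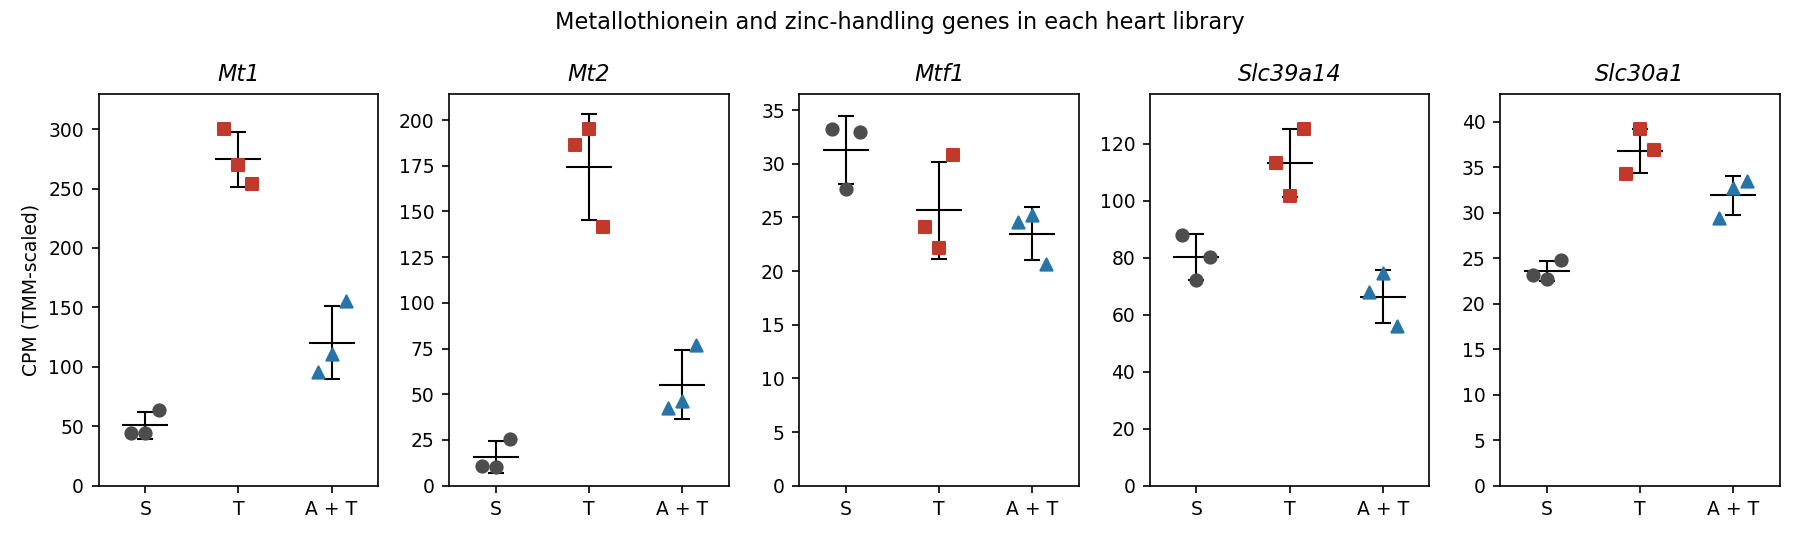
CPM of the 5 genes in each of the 9 heart libraries (y axis, linear and from 0), by group on the x axis, with 1 symbol per animal and a horizontal bar and whiskers for the mean ± SD of 3 animals. Mt1 lies between 44.1 and 64.1 CPM in S and between 253.9 and 300.0 CPM in T, and A + T lies between them. Mtf1 overlaps between S and T.

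In T vs. S, the log2 fold change was 2.43 (SE 0.20) for Mt1 and 3.51 (SE 0.36) for Mt2, that is 5.41-fold and 11.4-fold higher levels. Ordered from the most increased gene down, Mt2 was number 6 and Mt1 number 28 of 13364. The log2 fold changes in A + T vs. T were -1.19 (SE 0.19) for Mt1 and -1.66 (SE 0.33) for Mt2, or 2.28-fold and 3.16-fold lower in A + T. Those in A + T vs. S were 1.25 (SE 0.19) and 1.85 (SE 0.35), or 2.37-fold and 3.62-fold higher. The comparisons share the same 9 libraries, so these values are not independent of each other.

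The metallothionein transcripts also differed in their proportions. Mt2 made up 19.2% of the Mt1 and Mt2 counts in animal 2 (Wilson 95% interval 16.8 to 21.7), 18.9% in animal 3 (16.6 to 21.3) and 28.7% in animal 5 (26.2 to 31.2) of S. In T it made up 38.3% (37.3 to 39.4), 42.0% (40.9 to 43.1) and 35.8% (34.3 to 37.2) in animals 11, 12 and 15. In A + T it made up 30.9% (29.0 to 32.8), 29.4% (27.6 to 31.4) and 33.1% (31.6 to 34.6) in animals 20, 21 and 22. The groups did not overlap in this share, although the interval of animal 5 of S overlapped those of animals 20 and 21 of A + T and the interval of animal 22 of A + T overlapped that of animal 15 of T. The intervals cover counting error only. The mean share was 22.2 ± 5.57% in S against 38.7 ± 3.11% in T, with 31.1 ± 1.85% in A + T (SD, n = 3 each), beside summed levels of 66.4 ± 20.3, 449 ± 47.6 and 176 ± 49.6 CPM. The groups with a higher mean of metallothionein RNA had a larger mean share of Mt2. Within groups the order could differ. In T, animal 11 had a higher sum than animal 12 (486.6 against 464.8 CPM) but a smaller share. In A + T, animal 21 had a higher sum than animal 20 (156.6 against 138.5 CPM) but a smaller share.

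**Figure D2:**
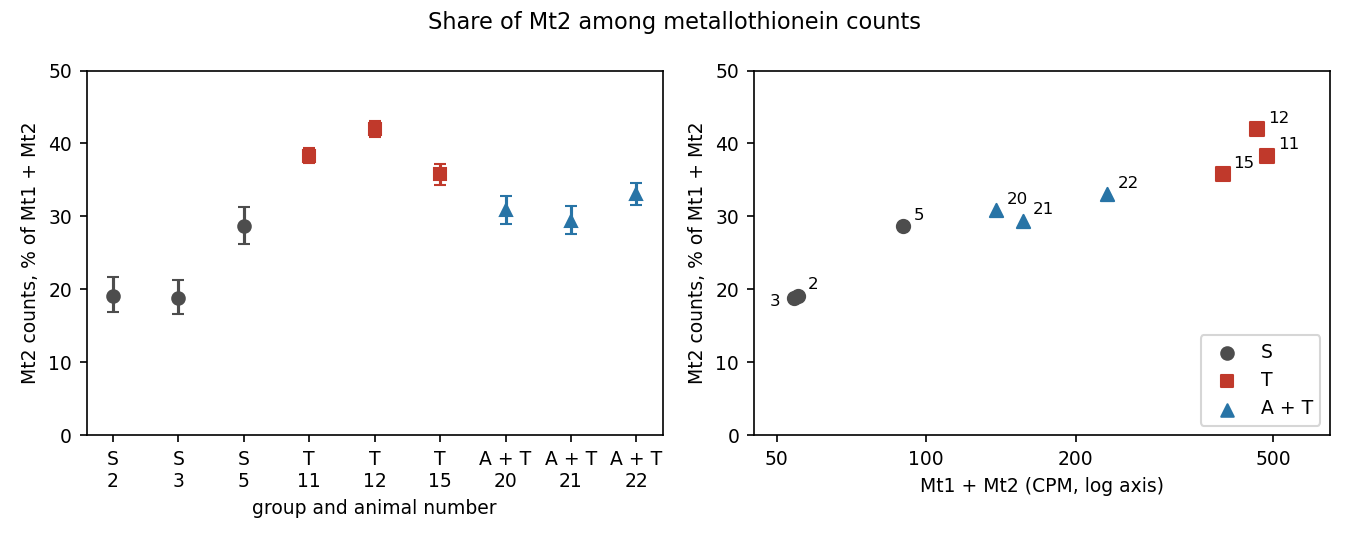
Left, Mt2 counts as a percentage of Mt1 and Mt2 counts (y axis) in each library, named by group and animal number, with Wilson 95% intervals. Right, the same percentage against the summed CPM of both genes (x axis, log scale), with animal numbers beside the symbols. Animals 2 and 3 of S sit at 19.2 and 18.9%, and the T hearts sit between 35.8 and 42.0%.

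The zinc transporters of the set moved less. Slc30a1, the zinc exporter, stood at 23.2, 22.7 and 24.8 CPM in S, at 34.3, 39.2 and 36.9 CPM in T, and at 29.4, 32.7 and 33.5 CPM in A + T. Its groups did not overlap, again with S lowest and T highest. The means were 23.6 ± 1.09, 36.8 ± 2.46 and 31.9 ± 2.17 CPM (SD, n = 3 each), and the log2 fold changes were 0.64 (SE 0.09) in T vs. S, -0.21 (SE 0.09) in A + T vs. T and 0.44 (SE 0.09) in A + T vs. S. The spread between animals was the smallest of the set, with a coefficient of variation of 4.64 to 6.79% within groups.

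Slc39a14, the importer, stood at 88.1, 72.1 and 80.4 CPM in S, at 113.1, 101.5 and 125.1 CPM in T, and at 68.1, 74.5 and 56.1 CPM in A + T. T was above both other groups without overlap, whereas S and A + T overlapped. The means were 80.2 ± 8.01, 113 ± 11.8 and 66.2 ± 9.33 CPM (SD, n = 3 each), and the log2 fold changes were 0.50 (SE 0.12) in T vs. S, -0.77 (SE 0.12) in A + T vs. T and -0.28 (SE 0.12) in A + T vs. S. Its order of groups was therefore unlike that of Mt1, Mt2 and Slc30a1, with A + T at the bottom.

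Mtf1, the zinc-sensing factor, stood at 33.2, 27.6 and 33.0 CPM in S, at 24.1, 22.1 and 30.8 CPM in T, and at 24.6, 25.2 and 20.7 CPM in A + T. S overlapped T, T overlapped A + T, and S lay above A + T without overlap. The means were 31.3 ± 3.18, 25.7 ± 4.54 and 23.5 ± 2.44 CPM (SD, n = 3 each), with log2 fold changes of -0.29 (SE 0.13) in T vs. S, -0.12 (SE 0.14) in A + T vs. T and -0.41 (SE 0.13) in A + T vs. S. The RNA of the factor was thus not higher in the hearts with more metallothionein RNA, and RNA levels give no measure of the bound zinc or the activity of the protein.

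The levels of the 5 genes were set against each other per length, on the log2 scale deposited by the authors, whereas the share of Mt2 above is one of counts from transcripts of similar length. In S the order was Mt1 at 6.52 ± 0.31, Mt2 at 4.67 ± 0.75, Slc39a14 at 3.93 ± 0.14, Slc30a1 at 2.17 ± 0.06 and Mtf1 at 2.03 ± 0.15 (SD, n = 3 each). Slc30a1 and Mtf1 differed there by less than their spread, and Mt2 and Slc39a14 by about the SD of Mt2. In T the same order held, at 8.97 ± 0.12, 8.27 ± 0.25, 4.43 ± 0.15, 2.81 ± 0.09 and 1.74 ± 0.25, and the metallothioneins stood farther from the other genes. In A + T the levels were 7.76 ± 0.36, 6.58 ± 0.46, 3.65 ± 0.21, 2.60 ± 0.10 and 1.62 ± 0.16.

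Of the 5 members, 4 passed an adjusted P-value of 0.05 as higher in T vs. S, the exception being Mtf1, where 21.2% of all genes tested passed (10.3% higher and 11% lower). As lower in A + T vs. T, 3 of 5 (Mt1, Mt2 and Slc39a14) passed, where 5.88% of all genes passed (3.09% higher and 2.79% lower). As higher in A + T vs. S, 3 of 5 (Mt1, Mt2 and Slc30a1) passed, where 8.31% passed (4.67% higher and 3.64% lower). The CPM of the groups did not overlap in 4 of 5 members in T vs. S against 42.6% of all genes, in 4 of 5 in A + T vs. T against 25.4%, and in 4 of 5 in A + T vs. S against 32.4%. Nothing is read from these counts, since the members were chosen from the same comparisons. With each animal left out in turn, Mt1 stayed past the threshold in 9 of 9 fits of every comparison, with log2 fold changes of 2.34 to 2.63 in T vs. S and -1.42 to -1.05 in A + T vs. T. Mt2 did so in 9 of 9 fits of T vs. S (3.28 to 4.07), but in A + T vs. T only in 5 of 9, missing it without animals 11, 12, 20 or 21. Mt2 and Slc30a1 missed it in A + T vs. S without animals 2 or 3, and Slc39a14 missed it in T vs. S without animals 3, 5 or 11. Mtf1 passed in T vs. S only without animal 15, at -0.43.

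Animal 22 of A + T, with the airway and neutrophil markers named above, was also the highest of its group in Mt1 and Mt2, as animal 5 of S was both in these genes and in the neutrophil markers. The part of the neutrophil markers in the levels was not tested. Without animal 22, the log2 fold change of A + T vs. T was -1.42 for Mt1 and -1.98 for Mt2, larger than with all animals. The summed hepatocyte markers were 6.22 to 15.7 CPM in S, 1.43 to 6.94 CPM in T and 1.51 to 4.51 CPM in A + T. Of the 3 tested, Ttr was higher in T than in S (mean 1.33 against 0.885 CPM) and 2 were lower. None of the 3 passed the threshold in T vs. S, and Ttr had only 10 to 23 counts in S and 16 to 22 in T. The part of hepatocyte RNA in the levels was not tested. The sums of fibroblast, endothelial and cardiomyocyte markers were lower in T than in S, as given above. Of the cardiomyocyte markers, Actc1 passed the threshold as lower and Tnnt2 as higher in T vs. S. Of 5 macrophage markers, 4 (Adgre1, Csf1r, Cd68 and C1qa) passed as higher in A + T vs. T and in A + T vs. S. Beside these, 3.09% and 4.67% of all genes passed as higher. Pdgfra and Tcf21, 2 of 4 fibroblast markers, and Cdh5, 1 of 4 endothelial markers, also passed as higher in A + T vs. T. In A + T vs. S, Cdh5 passed as lower. The part of the cell mixture in the levels was not tested. In whole hearts, fewer cells of a type and less RNA per cell cannot be told apart.

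Other zinc transporters differed in T vs. S about as often as genes in general. A list of 22 further Slc30a and Slc39a genes held 16 that could be tested, and in T vs. S 1 of them rose and 2 fell (the remaining 6 were not among the genes analysed here), a share near the 21.2% of all genes that passed. The median log2 fold change was -0.13 beside -0.0038 over all genes. Slc39a1 (ZIP1), an importer of the cell surface, rose from 58.7, 59.4 and 62.2 CPM in S to 86.2, 80.5 and 77.5 CPM in T (log2 fold change 0.44, SE 0.08, edgeR adjusted P = 0.0048). Slc39a10 (ZIP10), an importer whose gene is known to be repressed by Mtf1 when zinc is high, fell from 24.88, 25.43 and 18.30 CPM to 11.03, 13.97 and 12.82 CPM (-0.86, SE 0.15, edgeR adjusted P = 0.0034). These 2 genes had no overlap between S and T, and both stayed past the threshold in 9 of 9 fits with an animal left out, but Slc39a1 missed it with library size only.

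Slc39a3 (ZIP3) fell by 0.39 on the log2 scale in T vs. S (SE 0.11, edgeR adjusted P = 0.029), and missed the threshold with library size only and without animals 5, 11, 12 or 15. In A + T vs. S, Slc39a1 rose by 0.42 (SE 0.08, edgeR adjusted P = 0.015), Slc39a10 fell by 0.72 (SE 0.15, edgeR adjusted P = 0.019) and Slc39a13, a transporter of the secretory pathway, fell by 0.37 (SE 0.09, edgeR adjusted P = 0.030). The counts of the list were thus 1 higher and 2 lower of 16 there, beside 4.67% and 3.64% of all genes. The median was -0.10, and none of the 3 calls held without animal 2. In A + T vs. T, 0 of 16 passed in edgeR, DESeq2 or limma, with a median of 0.04 beside 0.0098 over all genes, although 3 (Slc39a3, Slc39a7 and Slc39a13) had an unadjusted P-value under 0.05 in edgeR. The widest spreads within a group of the family came with animal 22 of A + T. Slc39a8 stood at 39.6 CPM there and at 6.25 and 10.3 CPM in the other A + T hearts. Its log2 fold change in A + T vs. T, 0.58 with all animals, was -0.62 without animal 22. Slc39a4, on 4 to 95 counts in A + T, stood at 5.85 CPM in animal 22 and at 1.11 and 0.287 CPM in the others. Its log2 fold change in A + T vs. T, the highest of the list at 1.40, was -0.35 without animal 22.

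**Figure D3:**
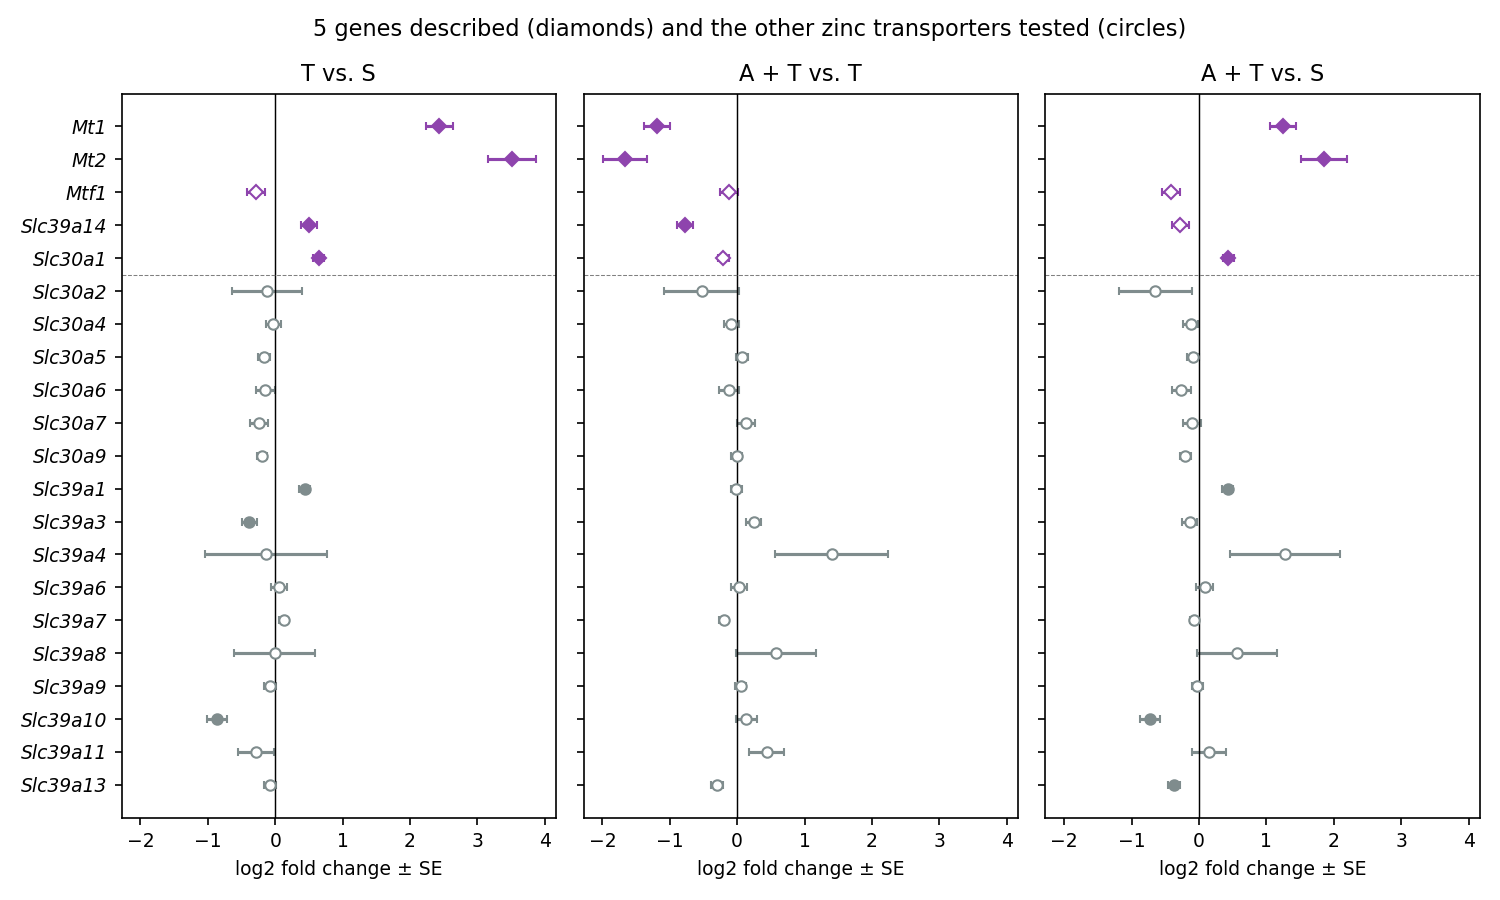
Log2 fold change ± SE (x axis) of the 5 genes described (diamonds) and of 16 other zinc transporters (circles), 1 gene per row, for T vs. S (left), A + T vs. T (middle) or A + T vs. S (right). Filled symbols passed an adjusted P-value of 0.05. Mt1 and Mt2 lie farthest from 0 in T vs. S at 2.43 and 3.51, and most other transporters lie within 0.50 of 0.

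Genes of copper handling, taken as another list because metallothioneins also bind copper, went both ways. The shares to read the lists against are those of all genes, 10.3% higher and 11% lower in T vs. S, 3.09% higher and 2.79% lower in A + T vs. T, with medians of -0.0038 and 0.0098. Of 13 copper genes tested, 2 rose and 4 fell in T vs. S (median log2 fold change -0.16), and 1 rose and 1 fell in A + T vs. T (median 0.07). Cp, ceruloplasmin, the copper-carrying ferroxidase and an acute-phase gene, stood at 134.9, 141.7 and 136.4 CPM in S, at 219.4, 233.8 and 172.9 CPM in T and at 129.7, 123.2 and 141.0 CPM in A + T. T lay above both other groups without overlap (T vs. S 0.60, SE 0.11, edgeR adjusted P = 0.0040; A + T vs. T -0.67, SE 0.11, edgeR adjusted P = 0.0096), and the call in A + T vs. T was missed without animal 11. Steap4, a reductase of iron and copper, was lowest in T, falling by 0.99 (SE 0.10, edgeR adjusted P = 0.00023) in T vs. S and rising by 0.66 (SE 0.10, edgeR adjusted P = 0.0075) in A + T vs. T. Cox17, a copper chaperone of mitochondria, rose by 0.53 in T vs. S (SE 0.14, edgeR adjusted P = 0.024), and Sco2, an assembly factor of cytochrome oxidase, fell by 0.77 (SE 0.24, edgeR adjusted P = 0.047), as did Sco1 and Steap3 by less. Cox17 and Sco2 stayed past the threshold in only 4 and 2 of the 9 fits with an animal left out. Without animals 2 or 11 the list held 2 calls in T vs. S, 1 in each direction.

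Of 6 genes reported as targets of Mtf1, 1 rose and 2 fell in T vs. S (median -0.18), beside 10.3% and 11% of all genes, and 1 rose in A + T vs. T (median -0.04), beside 3.09%. Ndrg1 rose by 0.48 (SE 0.10, edgeR adjusted P = 0.0068), and Slc39a10, named above and also in this list, fell. Slc40a1 (ferroportin), the iron exporter, stood at 8.46, 9.19 and 11.6 CPM in S, at 6.20, 6.42 and 6.08 CPM in T and at 14.7, 10.9 and 12.6 CPM in A + T. It fell by 0.64 (SE 0.16, edgeR adjusted P = 0.017) in T vs. S, a call missed without animals 5 or 11, and it rose by 1.03 (SE 0.16, edgeR adjusted P = 0.0075) in A + T vs. T. Gclc, Pgf and Csrp1 had log2 fold changes of 0.26, 0.03 and -0.39 in T vs. S and did not pass. With library size only, the calls of Ndrg1 and Slc40a1 in T vs. S were missed.

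Among 6 genes of the oxidative stress response, 3 rose and none fell in T vs. S, beside 10.3% and 11% of all genes, with a median log2 fold change of 0.53, and DESeq2 gave 4 higher and 1 lower. Nqo1, a quinone reductase, rose from 41.3, 52.6 and 41.1 CPM in S to 91.6, 92.9 and 110.9 CPM in T (1.13, SE 0.11, edgeR adjusted P = 0.00021). Hmox1, the haem-degrading oxygenase, rose by 1.11 (SE 0.22, edgeR adjusted P = 0.0054) and Gclm, a subunit of the enzyme of glutathione synthesis, by 0.69 (SE 0.14, edgeR adjusted P = 0.0068). All 3 stayed past the threshold in 9 of 9 fits with an animal left out. None of the 6 passed in A + T vs. T in edgeR, DESeq2 or limma, with a median of -0.27, and 3 of the 6 (Nqo1, Gclm and Txnrd1) had an unadjusted P-value under 0.05 in edgeR.

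The lists of known inducers of metallothioneins were drawn up with their earlier values in these hearts known, so they are no independent evidence. Of 9 glucocorticoid-responsive genes, 3 rose and 1 fell in T vs. S (median 0.35), beside 10.3% and 11% of all genes, and 2 fell in A + T vs. T (median -0.16), beside 2.79%. Zbtb16, a zinc finger factor known as a glucocorticoid target, stood at 51.3, 29.8 and 34.1 CPM in S, at 284.1, 276.2 and 241.7 CPM in T and at 56.2, 102.7 and 89.1 CPM in A + T (T vs. S 2.80, SE 0.24, edgeR adjusted P = 0.00011; A + T vs. T -1.69, SE 0.23, edgeR adjusted P = 0.0049). Its groups did not overlap. Fkbp5, a co-chaperone of the glucocorticoid receptor, rose by 1.59 (SE 0.23, edgeR adjusted P = 0.0013) and fell by 1.58 (SE 0.23, edgeR adjusted P = 0.0071) in these comparisons. Klf9 rose by 0.92 in T vs. S (SE 0.15, edgeR adjusted P = 0.0022), whereas Nr3c1, which encodes the receptor itself, fell by 0.48 (SE 0.07, edgeR adjusted P = 0.0013). Tsc22d3, Per1, Sgk1, Dusp1 and Nfkbia did not pass, Per1 at 1.58 (SE 0.55) and Tsc22d3 at 0.25 (SE 0.22).

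Of 13 genes known to respond to interleukin-6 and Stat3, 9 rose and none fell in T vs. S, beside 10.3% and 11% of all genes, with a median of 1.05. Serpina3n, a secreted protease inhibitor of the acute phase, stood at 15.9, 16.2 and 51.4 CPM in S, at 236.0, 320.7 and 267.8 CPM in T and at 70.1, 45.2 and 86.6 CPM in A + T. Animal 5 of S, the highest of its group in Mt1 and Mt2, was also the highest there and overlapped A + T. Serpina3n rose by 3.32 (SE 0.43, edgeR adjusted P = 0.00077) in T vs. S and fell by 2.03 (SE 0.40, edgeR adjusted P = 0.021) in A + T vs. T. Lcn2, the siderophore-binding lipocalin, rose by 2.52 (SE 0.41, edgeR adjusted P = 0.0024) in T vs. S, Socs3, the inhibitor of this pathway, by 1.65 (SE 0.28, edgeR adjusted P = 0.0030), and Osmr, the receptor of oncostatin M, by 1.31 (SE 0.10, edgeR adjusted P = 8.7e-05). In A + T vs. T, 3 fell (median of the list -0.33), beside 2.79% of all genes, namely Serpina3n, Osmr by 0.82 (SE 0.10, edgeR adjusted P = 0.0032) and Stat3 by 0.44 (SE 0.10, edgeR adjusted P = 0.031). Without animal 11 or animal 20 the count there was 1, and without animal 22 it was 6. Serpina3n missed the threshold there without animals 11, 12, 20 or 21, as Mt2 did, and Stat3 with library size only, in the fit of only the groups compared and without animals 3, 11, 15 or 20. Timp1, with 0.02 (SE 0.37) in T vs. S, Cebpd, Junb and Saa3 did not pass. In A + T vs. S the calls were 1 of 13 copper genes (higher), 1 of 6 reported Mtf1 targets (Slc39a10, lower), 2 of 6 oxidative stress genes (higher), 2 of 9 glucocorticoid-responsive genes (1 higher, 1 lower) and 3 of 13 of the IL-6 and Stat3 list (higher). Beside these, 8.31% of all genes passed in that comparison (4.67% higher and 3.64% lower).

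**Figure D4:**
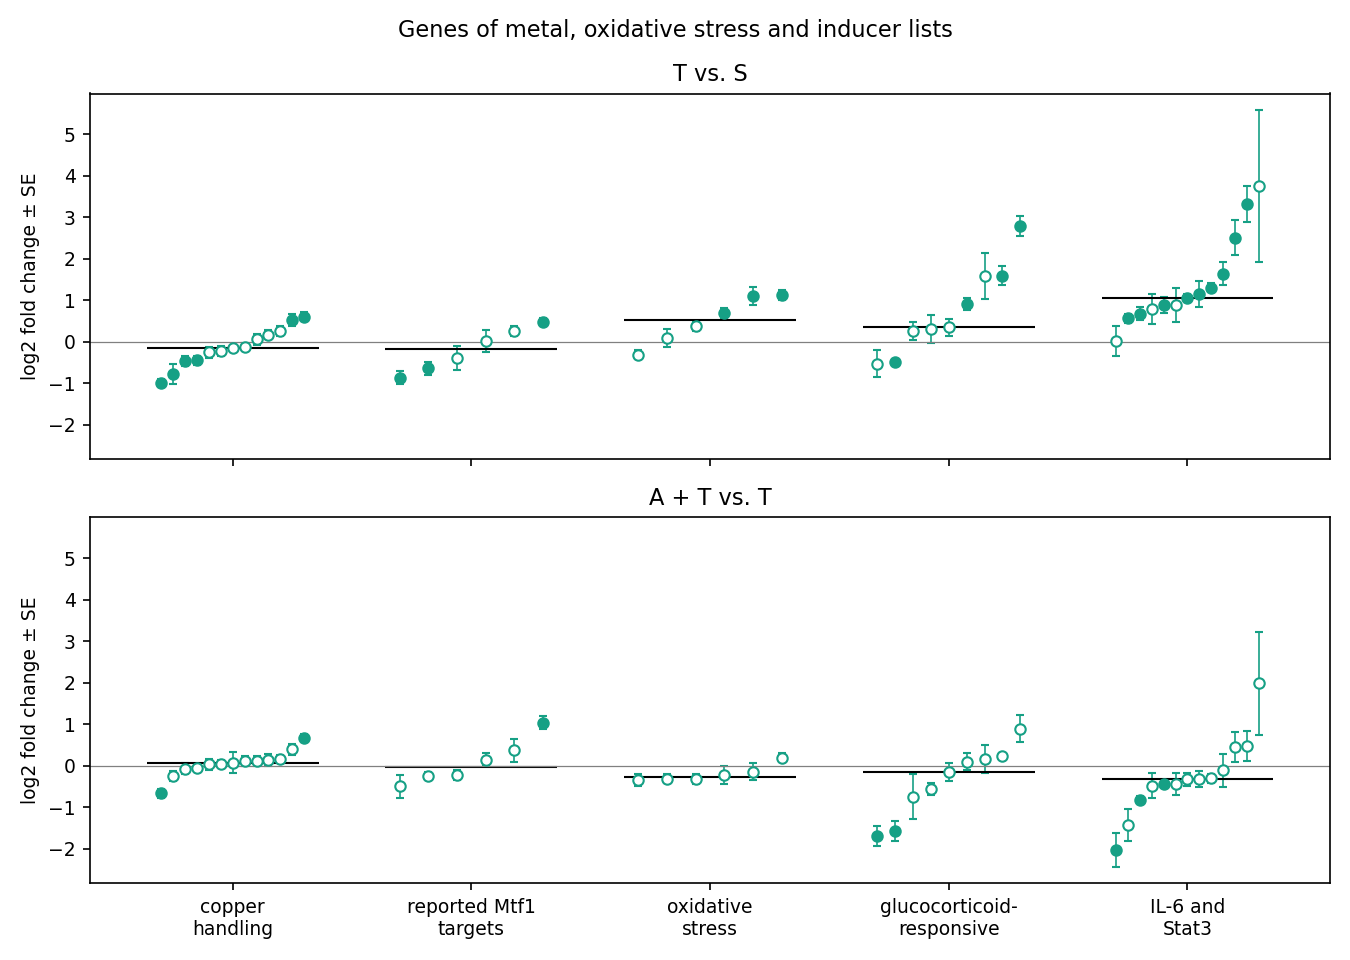
Log2 fold change ± SE (y axis) of each gene tested in the copper handling, reported Mtf1 target, oxidative stress, glucocorticoid-responsive and IL-6 and Stat3 lists (x axis), in T vs. S above and A + T vs. T below. Filled symbols passed an adjusted P-value of 0.05 and black lines are list medians. In T vs. S the IL-6 and Stat3 list has a median of 1.05 and the reported Mtf1 targets lie on both sides of 0.

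The genes outside the set of 5 that were most like each member over the 9 libraries were named by the Pearson correlation of their log2 CPM among 13178 genes, as a description, since the points share their groups, depth and scaling. For Mt1 they were Rhobtb1 (r = 0.99), Nub1, Limd1, Eif1a and Phyhd1, and for Mt2 Rhobtb1 (0.98), Glul, the glutamine synthetase, Nub1, Serpina3n and Serpina3i. Slc30a1 was closest to Ccdc82 (0.98), Tfdp2, Ak6, Usp3 and Glul. Slc39a14 was closest to Ube2d2a (0.99), Fry, Furin, a protease of the secretory pathway, Rrp12 and 1700025G04Rik, and Mtf1 to Gpr157 (0.97), Kdm5c, Lonrf2, Stox2 and Hyou1. An r above 0.9 was reached by 351 genes with Mt1, 288 with Mt2, 225 with Slc30a1, 79 with Slc39a14 and 51 with Mtf1, of the 13178 ranked. A high r was thus not particular to the genes named. Between members, r over the libraries was 0.99 for Mt1 and Mt2, which were thus closer to each other than to any gene named here, and 0.95 for Mt1 and Slc30a1, against 0.52 for Mt1 and Slc39a14 and -0.55 for Mt1 and Mtf1.

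The genes tested on either side of the metallothionein pair were looked at after their values were known. Of 3 on each side, Bbs2, a ciliary gene, and Herpud1, a gene of the endoplasmic reticulum stress response, rose in T vs. S, by 0.55 (SE 0.14, edgeR adjusted P = 0.021) and 0.85 (SE 0.11, edgeR adjusted P = 0.00079). Herpud1 fell by 0.79 in A + T vs. T (SE 0.11, edgeR adjusted P = 0.0056). Nup93, the nearest one downstream, had -0.05 (SE 0.15), and the large differences of Mt1 and Mt2 were not seen in these neighbours.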

How the data were processed

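RNA was taken from 9 whole hearts, 3 each labelled S, T and A + T, and all were sequenced together, so batch and group are not mixed by the labels. According to the methods of the study and the submitters' processing notes, FastQC was used for quality, paired reads of 75 bases were aligned with STAR to mm10, and featureCounts counted reads per refGene gene on the marked strand. The authors deposited raw counts per gene, and a table of log2 values which, in 12254 genes, differed from log2 CPM by a constant per gene (median SD 0.0027) and were therefore treated as scaled by gene length. The deposited table also lists no sample outside these 9.

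Genes under 0.5 CPM in at most 4 libraries were kept (13364 of 13890, with 526 removed). Counts were fitted in R 4.3.3 with edgeR 4.0.16, TMM factors and the quasi-likelihood test over the 3 groups at once, and P-values were adjusted by the Benjamini-Hochberg method, called at 0.05. Libraries of a group differed by a chi-square of at least 7.74 per gene, so none was a copy. The P-values set a difference against the spread between animals, estimated over the 3 groups at once and drawing on all genes tested. That estimate rests on only 3 animals a group. Wilson intervals are at 95% and cover counting error. Scripts were tested on simulated data. Alternatives were DESeq2 1.42.0, upper-quartile and no library scaling, other filters, fits of only the groups compared, limma 3.58.1 on the deposited log2 values, limma-voom, and each animal left out. Fits without Rn45s were added after seeing the data.

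The members and the lists (zinc transporters, copper handling, reported Mtf1 targets, oxidative stress, glucocorticoid-responsive, IL-6 and Stat3, cell type markers) were chosen with earlier results of these data known. All 5 members were named. From each list, genes past the threshold in T vs. S or A + T vs. T were named, up to 4 per list and comparison, and others were added for contrast after their values were seen, and the 5 genes most correlated with each member. Positions are from GENCODE M21 (GRCm38) and promoter windows from RefSeq.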

Additional observations from a re-analysis of the deposited data

How the results depend on the processing

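Of 270 values of the 5 genes under the alternatives, 256 kept their direction and their side of the threshold, 12 lost it, 1 gained it and 1 reversed. The reversal was Mtf1 in A + T vs. T, -0.12 with all animals and -0.22 to 0.022 with an animal left out, positive only without animal 15, which was not past the threshold either way. Among list genes past the threshold in the edgeR fit of all animals, 734 of 828 values kept their call and 94 lost it, with 0 reversals. List genes that had not passed were left out of these values, so no gain was possible there. The count of members past the threshold was 4 in T vs. S (3 to 5 with an animal left out), 3 in A + T vs. T (2 to 3) and 3 in A + T vs. S (1 to 3, with 1 without animal 2 or animal 3). Over all genes, T vs. S gave 2838 calls and 1765 to 3786 with an animal left out, the fewest without animal 11, A + T vs. T gave 786 and 130 to 1006, the fewest without animal 11, and A + T vs. S gave 1110 and 269 to 1086, the fewest without animal 2. With library size only, the calls were 1636 (585 higher, 1051 lower, against 1371 and 1467), 438 (314 higher, 124 lower, against 413 and 373) and 555. In A + T vs. T, upper-quartile scaling gave 497 higher and 262 lower, DESeq2 gave 1200 calls and the fit of only the groups compared 217. The zinc transporter list held 3 calls in T vs. S (2 to 3 with an animal left out), 0 in A + T vs. T (0 in every fit) and 3 in A + T vs. S (0 to 3), and with library size only 1 in T vs. S and 1 in A + T vs. S. Slc30a1 in A + T vs. S also missed the threshold with library size only. The cause of these shifts was not tested. No paired analysis was possible because the groups were made up of different animals. With 3 hearts a group the precision was limited, and Mt2 in S rested on 191 to 356 counts a library.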
